A study of Canis lupus familiaris with 6 samples.

Results

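The cytosolic ribosomal proteins were taken as every probe set whose array annotation held exactly 1 gene symbol of the RPL, RPS or RPLP series or RPSA, with the close paralogs that share these symbols. This gave 116 of 42924 probe sets, for 57 of 15115 genes with 1 symbol. There were 36 genes of the large subunit and 21 of the small subunit, and each gene was given the mean of its probe sets. Another 22 ribosomal protein symbols of the RefSeq gene table for the dog (assembly UU_Cfam_GSD_1.0), among them RPL3, RPL11, RPS6 and RPSA, matched no probe set with 1 symbol and have no value here. The genes were measured in left ventricular RNA of 6 dogs, on 1 Affymetrix canine array each. Control 1 was a male Labrador retriever aged 12 years, control 2 a female St. Bernard aged 10 years, and control 3, a male aged 4 years, a Greater Swiss Mountain dog. All 3 affected animals, in which the labels give cardiomyopathy (DCM), were Great Danes. Affected 1 was a female aged 9 years, and affected 2 and affected 3 were males aged 7 years. Breed and disease went together and cannot be told apart.

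Ribosomal proteins coat the ribosomal RNA of the 2 subunits of the cytoplasmic ribosome. The small 40S subunit decodes the messenger RNA, and the large 60S subunit joins amino acids and passes the chain out through its exit tunnel. Their messenger RNAs are abundant, carry a pyrimidine tract at their 5' end and are translated under control of the kinase mTOR, which drives growth of heart muscle. Mammalian genomes hold many processed copies of these genes, so a probe set can pick up more than 1 transcript. Of the member probe sets, 71 of 116 (61.2%) carried an ending (_x_at or _s_at) that marks probes shared with similar sequences, against 33.7% of all probe sets.

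Deposited values are on a log2 scale and centred, with a median of 0 over the 6 arrays for every probe set. Thus no expression level can be read, levels of different genes cannot be compared, and the tissue could not be checked by the level of its markers. Over all genes the affected arrays were slightly lower, with a median difference of -0.075 and 35% of genes above 0. This shift ran with the control probe sets for tags that are not expressed, whose mean was 0.059, 0.011 and 0.13 on controls 1 to 3 and -0.030, -0.032 and -0.014 on affected 1 to 3. Among all probe sets, 41.8% followed these tags over the 6 arrays at a Pearson correlation over 0.9, against 17 of the 116 member probe sets (14.7%). The arrays number 3 per group, which limits the precision. Bulk RNA cannot tell fewer cells of a type from less RNA per cell.

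Against that background most ribosomal protein genes lay above 0. Of the 57 genes, 46 (80.7%) had a higher mean in affected hearts, and the median difference was 0.19 on the log2 scale. The differences were small and ran from -0.34 for RPL22L1 to 0.85 for RPL36. No member passed the adjusted threshold in limma (smallest adjusted p = 0.322), and neither did any of the 15115 genes (0% called). At an unadjusted p under 0.05, 7 members were higher, where 4.88% of all genes were, and 1 was lower, where 5.64% were. The 7 were RPL35, RPS16, RPS13, RPL35A, RPL27, RPS21 and RPL19, and the 1 was RPL37A. The 3 affected values lay above all 3 control values in 6 members, and 5.8% of all genes did so. They lay below all controls in 2 members, and 41.7% of all genes did so.

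The difference was carried by 2 of the 3 affected dogs. The median over the 57 genes was 0.25 on affected 1 and 0.15 on affected 3, but -0.056 on affected 2, which lay among the controls at 0.022, -0.066 and -0.14. In 42 of 57 members affected 1 was the highest array, as it was in 14.9% of all genes. Control 3 was the lowest array in 24 members (42.1%), against 19.3% of all genes. In 38 members (66.7%) both affected 1 and affected 3 exceeded every control, which held for 12.7% of all genes. Affected 2 exceeded every control in 8 members (14.0%), close to the 15.7% of all genes. A term that set affected 1 and affected 3 aside left affected 2 alone against the 3 controls. In that setting 27 of 57 members (47.4%) were above 0, with a median of -0.015. Of all genes 31.7% were then above 0, with a median of -0.088. Without affected 2, the members higher at an unadjusted p under 0.05 in limma numbered 24, against 6.97% of all genes. Those then higher without overlap are, by definition, the 38 members and 12.7% of all genes given above. Without affected 1, affected 3 or control 3 the count at that p was 2, 1 and 1, and it was 4 and 3 without control 1 and control 2. Of all genes 3.24%, 3.31%, 2.63%, 4.76% and 6.28% were higher at that p in these settings, in the same order. Without control 1, 22 members did not overlap and were higher, against 10.74% of all genes. The median difference stayed between 0.12 and 0.27 with any 1 array left out.

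**Figure D1:**
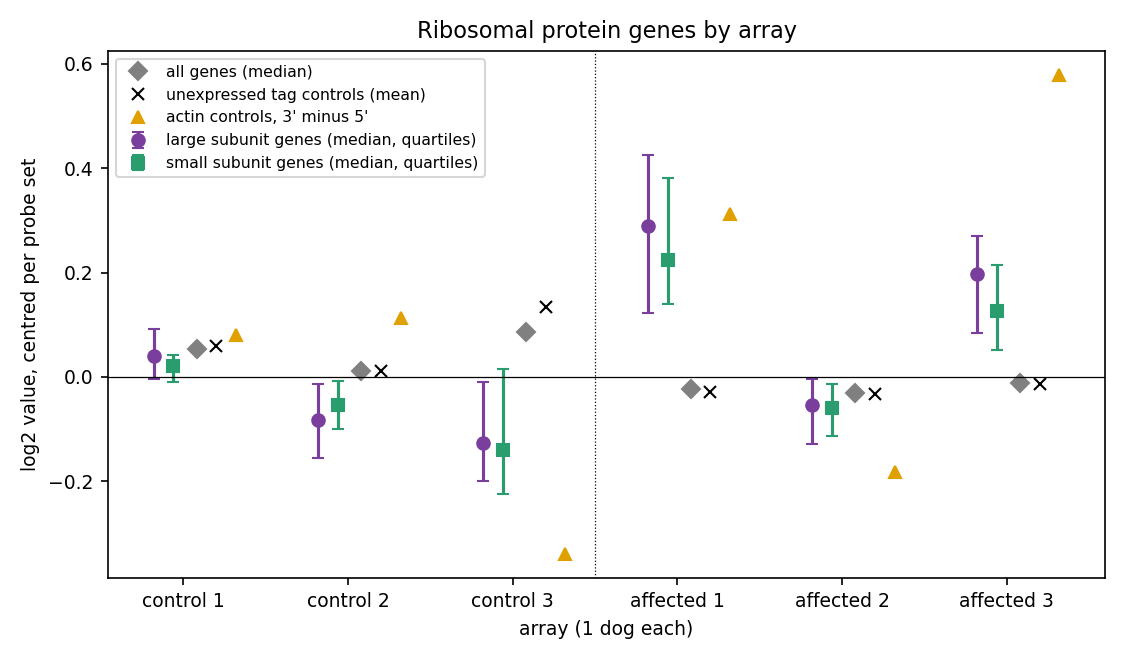
Log2 values by array (1 dog each) for large subunit genes (circles) and small subunit genes (squares), as medians with quartiles over genes, beside the median of all genes, the mean of the unexpressed tag controls and the 3' minus 5' difference of the actin controls. The medians of both subunits are above 0 on affected 1 and affected 3 and below 0 on affected 2, while those of all genes stay between -0.031 and 0.086.

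Other measures also differed between the arrays. For beta-actin, the control probe sets at the 3' end less those at the 5' end, a gap that widens where RNA is less intact, gave 0.31 on affected 1 and 0.58 on affected 3, against -0.18 on affected 2 and 0.080, 0.11 and -0.34 on controls 1 to 3. The same difference for GAPDH was 0.022, 0.14 and -0.033 on affected 1 to 3 and -0.036, 0.15 and -0.14 on the controls. Fibroblast markers (8 of 8 measured) had array medians of 1.16, 0.11 and 0.67 on affected 1 to 3 and -0.33, -0.15 and -1.61 on controls 1 to 3, and 7 of them were higher in affected hearts without overlap, where 5.8% of all genes were. Macrophage markers (6 of 6 measured) had array medians of 1.98, -0.13 and -0.014 on affected 1 to 3 and 0.87, -0.41 and -0.43 on controls 1 to 3, and all 6 were highest on affected 1. Cardiomyocyte markers (10 of 11 measured) were above 0 in 8 of 10, with a median difference of 0.16 against 0.19 for the ribosomal proteins. Their array medians were 0.014, -0.050 and -0.20 on controls 1 to 3 and 0.031, 0.019 and 0.092 on affected 1 to 3, and control 3 was the lowest array in 7 of 10. The 3 neutrophil markers were all lower in affected hearts without overlap, with a median difference of -2.14, and 3 of 5 measured lymphocyte markers were lower without overlap, with a median of -0.13. Of all genes 41.7% were lower without overlap, with a median of -0.075. Which of these markers are at or near 0 cannot be read from centred values, and their part in the ribosomal protein values was not tested.

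Both subunits had most genes above 0. Of the large subunit genes 29 of 36 were above 0, with a median difference of 0.20, and of the small subunit genes 17 of 21, with a median of 0.16. By array the large subunit stood at 0.039, -0.083 and -0.13 on controls 1 to 3 and 0.29, -0.054 and 0.20 on affected 1 to 3. The small subunit stood at 0.021, -0.055 and -0.14 on the controls and 0.23, -0.059 and 0.13 on the affected arrays. The large minus small difference was 0.018, -0.028 and 0.013 on the controls (mean 0.00096 ± 0.026 SD, n = 3) and 0.064, 0.0045 and 0.070 on the affected arrays (mean 0.046 ± 0.036 SD, n = 3). The groups overlapped in it, and the difference between the group means, 0.045, was 0.014 with means over genes in place of medians. Without the probe sets ending in _x_at or _s_at it was -0.016.

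**Figure D2:**
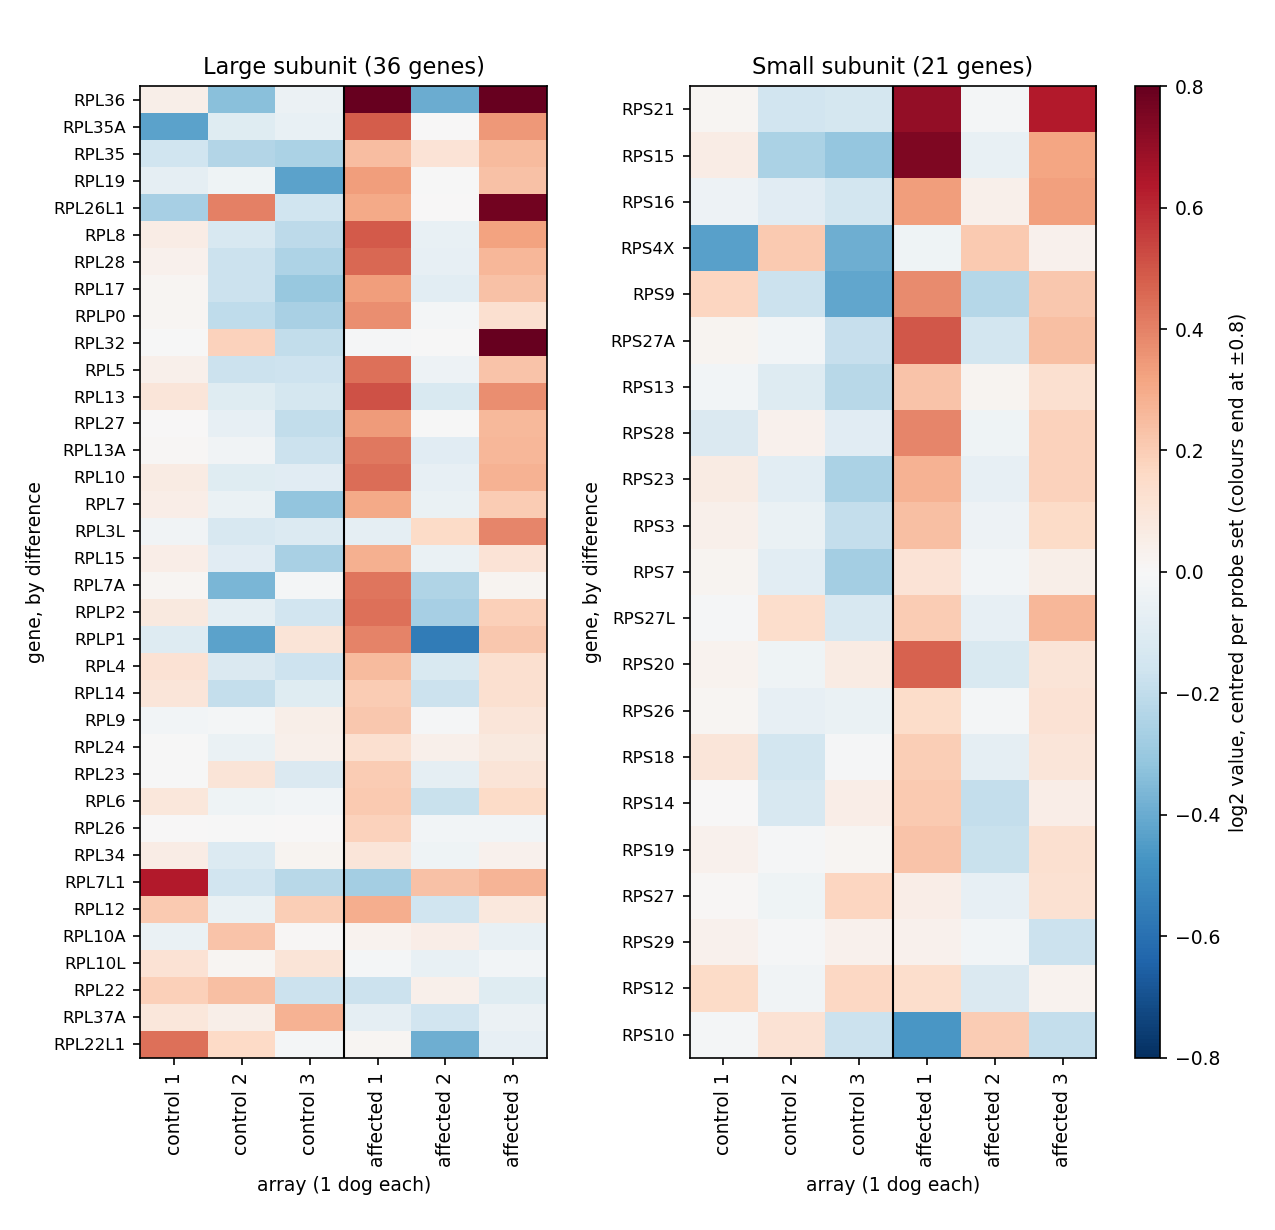
Log2 value of each of the 57 genes on each array, centred per probe set, with the large subunit on the left, the small subunit on the right and genes ordered by the difference between groups. Affected 1 and affected 3 are red in most rows, affected 2 is pale, and RPL36 reaches 1.36 on affected 1 and 1.23 on affected 3, beyond the end of the colour scale.

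In the large subunit, 4 genes were higher in affected hearts without overlap between the groups. RPL35, at the rim of the exit tunnel, had values of -0.16, -0.24 and -0.25 on controls 1 to 3 and 0.25, 0.11 and 0.26 on affected 1 to 3. It was thus the one of these genes in which affected 2 also stood well above the controls, and its difference of 0.42 (SE 0.062, limma adjusted p = 0.322) had the smallest unadjusted p among the members, 0.000868. RPL35A, a gene mutated in Diamond-Blackfan anaemia, was at -0.43, -0.10 and -0.061 on the controls and 0.49, 0.00026 and 0.34 on the affected arrays, a difference of 0.47 (SE 0.17). RPL19, another protein of the tunnel rim, was at -0.073, -0.037 and -0.43 against 0.34, -0.0018 and 0.23, a difference of 0.37 (SE 0.15). In both genes affected 2 lay just above the highest control. Each had 1 probe set without overlap, at 0.71 for RPL35A and 0.34 for RPL19, and 1 with overlap, at 0.23 and 0.40. RPL24, which takes part in a bridge between the subunits, was at -0.00055, -0.052 and 0.039 on the controls and 0.13, 0.042 and 0.080 on the affected arrays, a difference of 0.089 (SE 0.050) with affected 2 next to control 3. Its probe sets were at 0.38 and -0.20, and the lower followed the tags.

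RPL37A and RPL10L were lower without overlap. RPL37A, a zinc-binding protein of the large subunit, was at 0.092, 0.045 and 0.28 on controls 1 to 3 and -0.070, -0.15 and -0.045 on affected 1 to 3, a difference of -0.23 (SE 0.079, limma adjusted p = 0.322). Its only probe set followed the unexpressed tags at a correlation of 0.97. RPL10L, a copy of RPL10 known from testis, was at 0.11, 0.013 and 0.11 on the controls and -0.013, -0.060 and -0.021 on the affected arrays, a difference of -0.11 (SE 0.050). Control 1 and control 3 were the highest arrays in both genes, as the tags did.

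The P-stalk of the large subunit recruits the GTPases of elongation. Its core protein RPLP0 was at 0.015, -0.20 and -0.26 on controls 1 to 3 and 0.37, -0.015 and 0.13 on affected 1 to 3, a difference of 0.31 (SE 0.13). RPLP1 was at -0.10, -0.43 and 0.10 on the controls and 0.39, -0.56 and 0.22 on the affected arrays, and affected 2 was the lowest of all 6 arrays. RPLP2 had the same lowest array, at 0.076, -0.076 and -0.15 against 0.44, -0.27 and 0.19. Their differences were 0.16 (SE 0.29) and 0.17 (SE 0.19), and RPL12, at the base of the stalk, differed by -0.045 (SE 0.14). The probe sets of RPL12 were at 0.30 and -0.39, and the lower followed the tags at a correlation of 0.99. All 4 stalk genes were highest on affected 1, and none was without overlap. RPL5, which carries 5S ribosomal RNA into the subunit and binds MDM2 when ribosomes fail to form, was at 0.042, -0.17 and -0.16 on the controls and 0.44, -0.042 and 0.23 on the affected arrays, a difference of 0.31 (SE 0.14). Of the 6 measured proteins of the exit tunnel 5 were above 0, with a median of 0.23. RPL36 had the largest difference of all members, 0.85 (SE 0.50), and is named here after its values were seen. It was at 0.047, -0.34 and -0.047 on the controls and 1.36 and 1.23 on affected 1 and affected 3, but at -0.40, below every control, on affected 2.

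In the small subunit 2 genes were higher without overlap. RPS16, a protein of the 40S head, was at -0.042, -0.089 and -0.15 on controls 1 to 3 and 0.33, 0.042 and 0.33 on affected 1 to 3, a difference of 0.33 (SE 0.10, limma adjusted p = 0.322). RPS13, in the body of the subunit, was at -0.019, -0.10 and -0.22 on the controls and 0.23, 0.019 and 0.13 on the affected arrays, a difference of 0.24 (SE 0.083). In both, affected 2 was the lowest affected array and stood close above control 1. The largest differences were those of RPS21, 0.53 (SE 0.21), and RPS15, 0.50 (SE 0.23), named after their values were seen, in which affected 2 lay within the controls. Of the 11 measured head proteins 8 were above 0 (median 0.13), and of the 9 of the body and platform 8 were (median 0.22). RPS27A, made as a fusion with ubiquitin, was at 0.022, -0.022 and -0.18 against 0.50, -0.14 and 0.24, a difference of 0.26 (SE 0.18). RPS19, the gene most often mutated in Diamond-Blackfan anaemia, was at 0.037, -0.0072 and 0.015 against 0.23, -0.18 and 0.13, a difference of 0.043 (SE 0.11). Its probe sets were at 0.19 and -0.10, and the lower followed the tags. On affected 2, RPS27A lay within the controls and RPS19 below all of them. The 13 measured genes of that anaemia, from both subunits, had 10 above 0 and a median of 0.16.

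**Figure D3:**
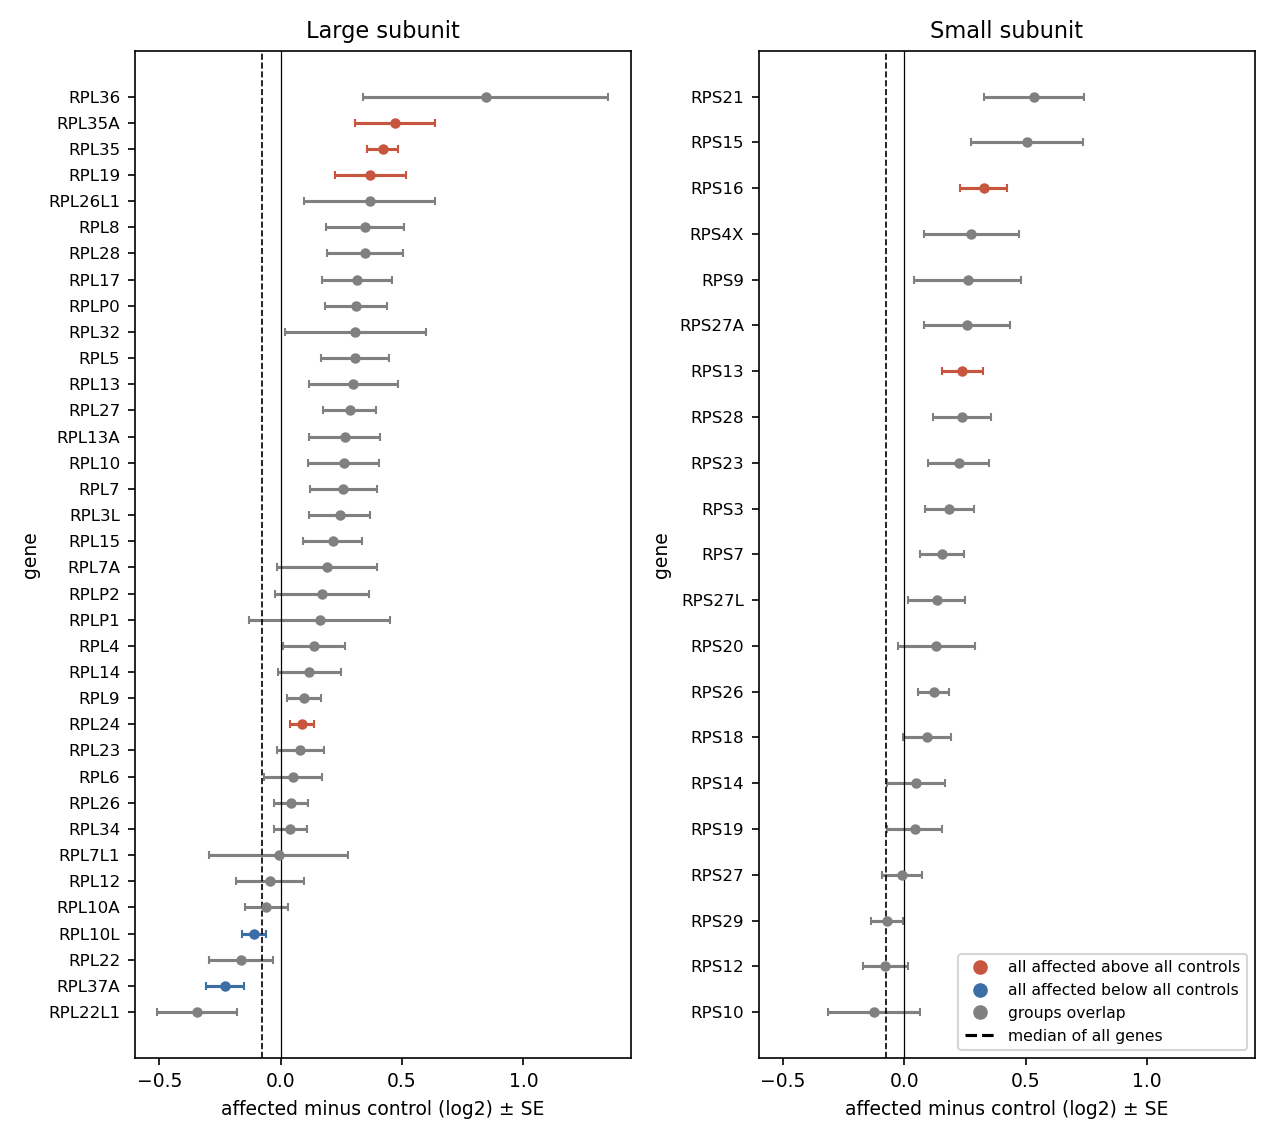
Affected minus control difference of each gene on the log2 scale (points) with its moderated standard error (bars), by subunit, with genes whose groups do not overlap in colour and the median of all genes, -0.075, as a broken line. In the large subunit 29 of 36 points lie above 0 and in the small subunit 17 of 21, and the widest bar is that of RPL36.

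The paralogs differed among themselves. Of the 6 measured, 3 were above 0, and 0 had affected 1 as the highest array, against 42 of all 57 members. Over the 6 arrays their Pearson correlation with the median of the other members on the same arrays, given as a description, ran from -0.38 for RPL10L to 0.77 for RPS27L. Among the other members RPS10, at -0.72, RPL37A, at -0.54, RPL10A, at -0.392, and RPL22, at -0.383, had lower correlations than RPL10L, at -0.380. RPL3L, the form of RPL3 found in heart and skeletal muscle, was at -0.026, -0.13 and -0.11 on controls 1 to 3 and -0.071, 0.15 and 0.39 on affected 1 to 3. Here affected 3 and affected 2 stood above the controls and affected 1 among them, with a difference of 0.24 (SE 0.12, limma adjusted p = 0.322). All 3 of its probe sets were above 0, at 0.11, 0.25 and 0.37. RPL26L1 was at -0.26, 0.40 and -0.16 on the controls and 0.30, 0.0036 and 0.77 on the affected arrays, a difference of 0.37 (SE 0.27), while its parent RPL26 differed by 0.044 (SE 0.071).

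RPL22L1, which can take the place of RPL22, was at 0.44, 0.16 and -0.015 on the controls and 0.015, -0.39 and -0.069 on the affected arrays, a difference of -0.34 (SE 0.16) with overlap. RPL22 itself was at 0.19, 0.24 and -0.17 against -0.17, 0.044 and -0.10, a difference of -0.16 (SE 0.13), so parent and paralog were both below 0. The probe sets of RPL22 were at -0.060 and -0.27, and the lower followed the tags. RPL7L1, at 0.64 on control 1 and between -0.27 and 0.27 elsewhere, differed by -0.0076 (SE 0.29), and RPL7 by 0.26 (SE 0.14). RPL10, the parent of RPL10L, differed by 0.26 (SE 0.15). RPS27L, a p53-induced relative of RPS27, differed by 0.13 (SE 0.12) and RPS27 by -0.011 (SE 0.083). The probe sets of RPS27 were at 0.22 and -0.24, and the lower followed the tags. With the arrays centred on their medians, RPL7L1 and RPS27 were above 0, at 0.065 and 0.062, and so was RPS27 after quantile normalization, at 0.026.

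Probe sets of the same gene often disagreed. Of 30 genes with several probe sets, 18 had some above and some below 0. Of the 116 probe sets 83 were above 0, where 33% of all probe sets were. At an unadjusted p under 0.05 in limma, 12 were higher (4.53% of all) and 5 lower (6.32% of all), and none passed the adjusted threshold, which 0.00233% of all did (smallest adjusted p of a member 0.296). The groups did not overlap in 12 that were higher (5.37% of all) and 18 that were lower (46.9% of all). The 17 that followed the tags were all below 0, with a median of -0.23. That direction is set by the choice, since the tags are lower on the affected arrays. The other 99 had 83 above 0 and a median of 0.23, a share that the same choice raises. With genes formed from probe sets that do not follow the tags, 56.2% of all genes were above 0 (median 0.049), and 87.5% of the members. By ending, 61 of 71 probe sets ending in _x_at or _s_at were above 0 (median 0.23), against 22 of the 45 others (median -0.026). With those 45 alone, 34 genes were left, of which 20 were above 0 with a median of 0.038, while the median of all genes was -0.076. RPL24, RPS19, RPL6 and RPS20 were then below 0.

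The widest spread was that of RPL35. Its first probe set was at -0.64, -0.42 and -0.81 on controls 1 to 3 and 0.59, 0.42 and 0.50 on affected 1 to 3, a difference of 1.13 (SE 0.11), the largest of any member probe set. The second differed by 0.31 (SE 0.16) with overlap, and the third, which followed the tags, by -0.17. Only 1 of the 3 probe sets of RPL35 was thus higher without overlap. RPS20, of the 40S head, had 8 probe sets from -0.54 to 0.40, of which 6 were above 0, and RPL6 had 11 from -0.44 to 0.44, of which 8 were above 0. In both genes the lowest probe set followed the tags. RPL10A, at the stalk that bounds the exit site of transfer RNA, had 1 probe set at 0.31 and 1 at -0.43. The gene values of RPS20, RPL6 and RPL10A were 0.13 (SE 0.16), 0.050 (SE 0.12) and -0.059 (SE 0.089), and RPL10A was at 0.014 with the arrays centred on their medians.

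**Figure D4:**
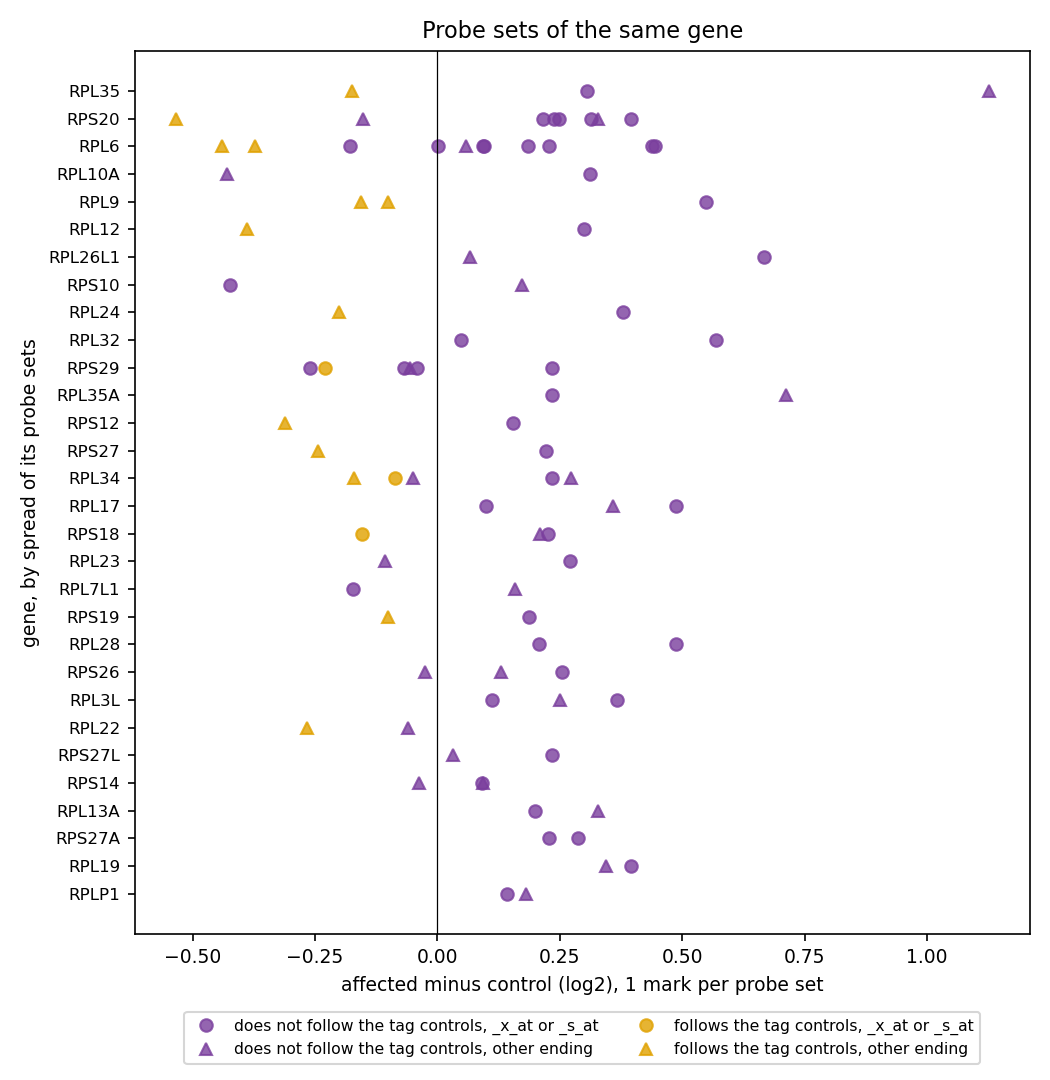
Affected minus control difference (log2) of every probe set of the 30 genes with several, 1 mark per probe set, with colour for those that follow the unexpressed tag controls and shape for the ending of the identifier. Marks that follow the tags all lie below 0, and RPL35 spans from -0.17 to 1.13.

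Other genes of ribosome production and translation were read from the same fit, and none passed the adjusted threshold (limma, smallest adjusted p = 0.322). Of the 85 measured ribosome biogenesis factors 51 (60.0%) were above 0, with a median of 0.10, 7 higher and 4 lower at an unadjusted p under 0.05, where 4.88% and 5.64% of all genes were. Among them RPF2, which loads the 5S particle, differed by 1.31 (SE 0.37), RCL1 by -0.55 (SE 0.10) and RPF1 by -0.23 (SE 0.05), each without overlap. The 13 genes of RNA polymerase I and its factors had a median of 0.16, 9 of them above 0, and the activator UBTF differed by -0.29 (SE 0.10). The 16 other messenger RNAs with a 5' pyrimidine tract had 13 above 0 and a median of 0.13. RACK1, a protein of the 40S head outside the naming rule, differed by 0.25 (SE 0.09), EIF3H by 0.17 (SE 0.05) and the elongation factor subunit EEF1D by -0.41 (SE 0.06). FAU, whose product yields the small subunit protein eS30, was at -0.025, -0.27 and -0.21 on the controls and 0.49, 0.025 and 0.10 on the affected arrays, a difference of 0.37 (SE 0.15) without overlap. RPL36AL differed by 0.21 (SE 0.11).

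The 17 genes between mTOR and translation had a median of -0.015 and 8 above 0. The translation repressor EIF4EBP1 was at 0.10, 0.61 and 0.94 on controls 1 to 3 and -1.18, -0.10 and -0.52 on affected 1 to 3, a difference of -1.15 (SE 0.35) without overlap, and its relative EIF4EBP2 differed by -0.16 (SE 0.06). The 72 mitochondrial ribosomal proteins, which translate the mitochondrial genome, had 47 above 0 (65.3%) and a median of 0.069. Affected 1 was the highest array in 20 of them. Of the 3 with the smallest p, MRPS18B was at 0.60 (SE 0.15), MRPS14 at 0.53 (SE 0.14) and MRPS26 at 0.24. The 34 proteasome subunits had 28 above 0 (82.4%), a median of 0.29, and 10 higher at an unadjusted p under 0.05, where 4.88% of all genes were, with PSMC2 at 0.63 (SE 0.11). Affected 2 exceeded every control in 15 of these 34, and in 8 of the 57 cytosolic ribosomal proteins. The lists were not tested against each other.

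**Figure D5:**
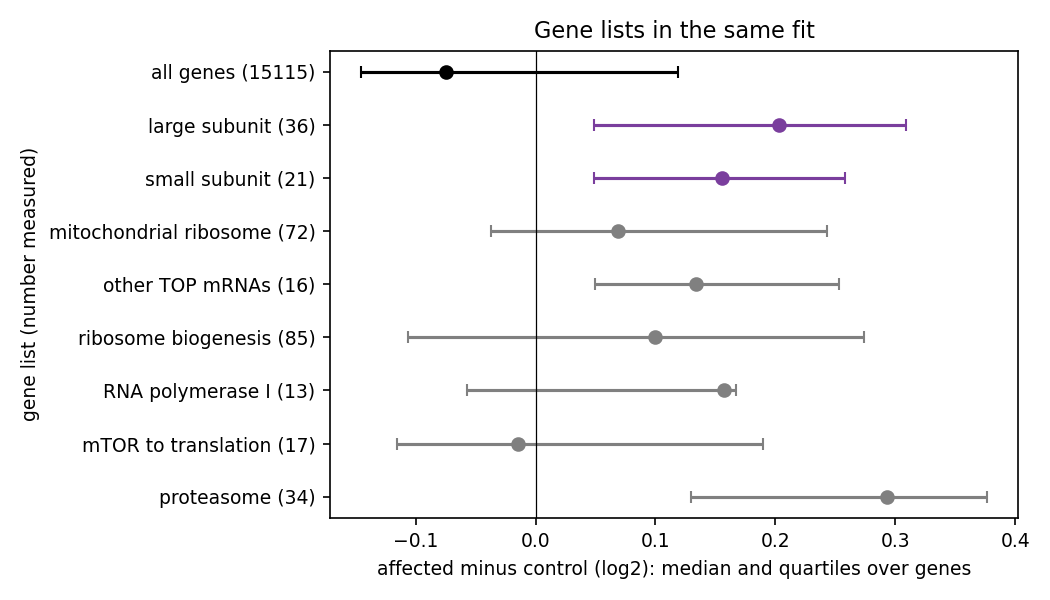
Affected minus control difference on the log2 scale, as the median (point) with quartiles over genes (bars) for each gene list, with the number of measured genes. The medians run from -0.075 for all genes to 0.29 for the proteasome, with the large and small subunit at 0.20 and 0.16.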

How the data were processed

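The values are the authors' deposited log2 values, 1 column per array. Per the submitters' processing notes, GCRMA and MAS5 were used, without their roles. The range of the values and these names were the basis for reading the scale as log2. Every probe set had a median of 0 over the 6 arrays. A genome build is not given in the sources used here, and no coordinates or sequences were used here. After 111 array controls were left out, 42924 probe sets remained, of which 29254 had 1 symbol, 439 several and 13231 were not listed in the array annotation. A symbol that was repeated for a probe set counted as several. Of the 116 member probe sets, 109 kept the same symbol in the current RefSeq table and 7 had an Entrez identifier it did not hold.

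Gene values are means over all probe sets with that symbol, without a filter. The group contrast was tested two-sided by lmFit and eBayes of limma 3.58.1 (R 4.3.3), without covariates and with 4 residual and 1.28 prior degrees of freedom. It was fitted over all 15115 genes or all 42924 probe sets, with Benjamini-Hochberg adjustment and a threshold of 0.05. Unexpressed tags are 17 control probe sets. The 3' minus 5' difference is the mean of the 3' control probe sets minus that of the 5' ones. Arrays are biological replicates per the labels, so each stands for 1 dog. Lists are described by counts and medians beside those of all genes, with no list test.

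The members, lists and alternatives were chosen with earlier results of these data known, including that ribosomal proteins as a list were higher, so that direction is not independent evidence. Named are, per subunit and direction, up to 6 genes without overlap between groups, then RPLP0, RPLP1, RPLP2, RPL3L, RPL5, RPS19, RPS27A, each paralog with its parent, and the 4 genes whose probe sets differed most. In other lists up to 3 genes with the smallest p were named. The alternatives were a range filter, quantile normalization, median centring, other summaries of probe sets, leaving out probe sets by ending or by the tags, sex, age, the replicate number, a term for affected 1 and affected 3, a robust prior, the members without paralogs, and leaving out each array.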

Additional observations from a re-analysis of the deposited data

How the results depend on the processing

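No member gene or probe set passed the adjusted limma threshold in any of the settings run. Of 166 other comparisons of counts and medians with the reported value, 53 moved. Of 495 for named genes, 31 turned sign, and 101 kept it but moved by over 1.5 times. The members higher at an unadjusted p under 0.05 in limma numbered 7 as reported (4.88% of all genes), 4 with the range filter (6.61%) and 4 with the robust prior (4.59%). They numbered 11 after quantile normalization (6.10%), 11 with age (7.43%), 14 after median centring (6.55%) and 3 without the _x_at and _s_at probe sets (4.65%). Those lower at that p were 1 as reported (5.64%), 0 with the range filter (2.98%), 0 without tag followers (2.30%) and 2 without _x_at and _s_at (6.28%). Members higher without overlap were 11 after quantile normalization (11.8% of all genes) and 15 after median centring (12.8%), against 6 as reported (5.8%). Those lower without overlap were 2 as reported (41.7% of all genes), and 1 with the range filter (21.3%), quantile normalization (16.8%) or median centring (15.3%). They were also 1 without tag followers (11.6%) and without paralogs (41.7%). With the median or widest probe set they were 4 (44.4% and 42.2%), and without _x_at and _s_at 9 of 34 (44.9%). Probe sets higher at that p were 4 with the range filter and 20 after quantile normalization, against 12 as reported (4.53% of all probe sets). The share of all probe sets was not counted in those settings, so these counts cannot be set against it. Without _x_at and _s_at, 20 of 34 genes were above 0, and the medians were 0.038 for all members, 0.044 for the large and 0.031 for the small subunit. With the term for affected 1 and affected 3 they were -0.015, -0.019 and 0.022, with 27 genes above 0. Of all genes 31.7% were above 0 with that term, and their median was -0.088. Large minus small was 0.014 from means over genes and -0.016 without _x_at and _s_at. The share of all genes above 0, 35% as reported, was 51.1% with the range filter, 44.4% after quantile normalization, 48.9% after median centring and 56.2% without tag followers, and that of the members 81.8%, 82.5%, 89.5% and 87.5%. For these settings the cause was not tested.

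With 1 array left out in turn, the median ran from 0.12 to 0.27 for members, 0.13 to 0.35 for the large and 0.11 to 0.23 for the small subunit. Member genes above 0 ran from 42 to 48, against 32.8% to 36.6% of all genes. At an unadjusted p under 0.05 in limma, members higher ran from 1 to 24 and lower from 0 to 2. Of all genes 2.63% to 6.97% were higher at that p and 1.85% to 24.0% lower. Members higher without overlap ran from 6 to 38 and lower from 2 to 5, against 6.82% to 12.7% and 43.1% to 48.2% of all genes. Probe sets higher at that p ran from 3 to 50 and those above 0 from 77 to 84, and large minus small from 0.031 to 0.066. The share of all probe sets was not counted with 1 array left out, so the probe set counts cannot be set against it.

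Named genes turned sign as follows. RPS27 was at 0.026 after quantile normalization, 0.062 after median centring and 0.22 without tag followers. RPL7L1 was at 0.065 after median centring, 0.16 without _x_at and _s_at, 0.053 with age and 0.15 with the term that sets affected 1 and affected 3 aside. RPL10A was at 0.014 after median centring. Without _x_at and _s_at, RPL24 was at -0.20, RPL6 at -0.25, RPS19 at -0.10 and RPS20 at -0.12. With affected 1 and affected 3 set aside, RPL10 was at -0.028, RPL26 at -0.024, RPL6 at -0.19, RPLP1 at -0.41, RPLP2 at -0.22, RPS19 at -0.19, RPS20 at -0.14, RPS27A at -0.084 and RPS27L at -0.067. Among moves that kept the sign, RPL35 was at 0.72 without tag followers and 1.13 with the widest probe set, and RPL35A at 0.71 without _x_at and _s_at. RPL6 was at 0.00043 after quantile normalization, RPS19 at 0.19 with the range filter, and RPL10L at -0.036 and RPL26 at 0.12 after median centring. With 1 array left out in turn, RPS27 ran from -0.054 to 0.051 (above 0 without control 3 or affected 2), RPL7L1 from -0.16 to 0.27 (above 0 without control 1 or affected 1) and RPL10A from -0.12 to 0.025 (above 0 without control 2). RPL26 ran from -0.024 to 0.078, RPL6 from -0.024 to 0.17, RPLP1 from -0.026 to 0.45, RPS19 from -0.040 to 0.16 and RPS20 from -0.029 to 0.27, each below 0 without affected 1 only.

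The deviations of arrays with the same replicate number correlated at 0.25, 0.16 and 0.064, and each array correlated best with the array of its own number, a hint from the data and not from the design. Since 1 correlation was under 0.1 the numbers were not taken as a pairing. With the replicate block the median was 0.19, with 8 members higher and 1 lower at an unadjusted p under 0.05 in limma. Of all genes 5.54% were higher and 4.44% lower at that p. Signal over background cannot be read from centred values, so probe sets near background could not be left out by level.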

Other observations

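Outside the members, 75 probe sets carried several symbols in the array annotation, at least one of them of the ribosomal protein series. Apart from those that only repeat the symbol RPL17, at 0.15 and 0.26, they cannot be given to 1 gene. The median difference of all 75 was 0.033 and 38 of 75 were above 0, where 83 of the 116 member probe sets were. The groups did not overlap in 10 of the 75 that were higher, where 5.37% of all probe sets were. The highest was annotated to RPL3 and a further locus, with a difference of 0.61 (SE 0.49), and the next to RPSA and further loci, with 0.52 (SE 0.26). In both the groups overlapped, and affected 1 was the highest array. The lowest were 3 of 6 probe sets annotated to both RPS24 and an uncharacterised locus. The probe sets of both ends were chosen after their values were seen. The first of the RPS24 probe sets was at 0.93, 0.98 and 0.64 on controls 1 to 3 and -0.64, -1.23 and -1.15 on affected 1 to 3. Its difference was -1.86 (SE 0.19, limma adjusted p = 0.296 over all probe sets). The second was at 0.32, 1.09 and 0.73 against -0.32, -0.45 and -0.56, a difference of -1.15 (SE 0.21), and the third at 0.20, 0.67 and 0.59 against -0.20, -0.42 and -0.27, a difference of -0.79 (SE 0.14). In these 3 all affected arrays lay below all controls, as in 22 of the 75 and in 46.9% of all probe sets. Affected 2 then lies with the other affected arrays by definition. The other 3 differed by 0.25, 0.11 and -0.19, so the probe sets of this pair of symbols disagreed in sign.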
